A study of Mus musculus with 144 samples.

Results

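The cells described here were the 58 single cells that the labels call aNSC, the usual short name for active neural stem cells, split by their own Egfr transcript. The cells were chosen by their Egfr level (ENSMUSG00000020122) in TPM, a measure of transcript abundance scaled to a fixed sum per library. The 15 cells at 1 TPM or more are called Egfr cells, and the 43 cells under 1 TPM are called cells without Egfr. They came from a series of 144 libraries, of which 117 were single cells labelled active or quiescent.

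All cells were mouse cells from the subventricular zone, the germinal layer beside the lateral ventricle, sorted by flow cytometry for expression of Tlx, an orphan nuclear receptor encoded by Nr2e1. The 5-week group held 7 Egfr cells and 25 without Egfr, the 7-week group 6 and 10, and the 7-month group 2 and 8. No treatment or deletion is named in the labels, and neither an animal, a sex nor a strain is given for any cell. Library titles fall into 9 sets, 8 of which held cells of both kinds. The sides were spread unevenly over them. Sets A1_1, A1_2, A2_3 and A3_3 each held 1 Egfr cell, so a sign within them rests on that cell. At 5 weeks, set A3_1 held 4 Egfr cells among 8 cells, A3_2 held 2 among 13 and A3_3 held 1 among 11. A difference between sides at 5 weeks can thus not be fully told apart from one between sets. Whether a set is a mouse is not stated, so cells and sets may share mice.

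Egfr encodes the receptor tyrosine kinase for epidermal growth factor and its relatives. The bound receptor signals through adaptors to the Ras and MAP kinase cascade and to the kinase Akt, and is then taken up and either recycled or degraded. In the adult subventricular zone it is widely used as a marker of active stem cells and of the transit-amplifying progenitors that follow them, while the neuroblasts made by those progenitors have lost it.

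Egfr was found at 1 TPM or more in 25.9% of the active cells (exact binomial 95% interval 15.3 to 39.0%). The share was 21.9% at 5 weeks (9.28 to 40%), 37.5% at 7 weeks (15.2 to 64.6%) and 20% at 7 months (2.52 to 55.6%). The 3 intervals overlapped. These intervals cover counting error only, since cells of 1 animal are not independent. Among the Egfr cells the level ran from 2.87 to 447 TPM with a median of 54.3 TPM. The median was 30.8 TPM in the 7 cells of 5 weeks and 75.6 TPM in the 6 cells of 7 weeks, and the 2 cells of 7 months stood at 186 and 447 TPM. The 3 cells just inside the limit had 2.87, 8.54 and 23.6 TPM, and the 3 just outside it had 0.68, 0.21 and 0.15 TPM. Of the cells without Egfr, 27 were listed at 0 and 16 lay above 0 and under 1 TPM. Egfr was left out of every comparison that follows, because it chose the cells. A cell without Egfr in these libraries may hold the transcript at a level the library did not catch, since the read depth is unknown.

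Both kinds of cell yielded a similar range of genes at 1 TPM or more. Egfr cells held 2051 to 3481 other genes at 1 TPM or more, with a median of 2908. Cells without Egfr held 1621 to 3842, with a median of 2734. Averaged within age, Egfr cells held 34.0 genes more (SD 229, n = 3 ages, higher in 2 of 3), a difference smaller than its spread (exact paired permutation test, two-sided p = 0.75, where 3 pairs allow no p below 0.25). Of the summed TPM, the nuclear RNA Malat1 made up 1.05% in the median Egfr cell and 1.77% in the median cell without Egfr, and the mean difference was -0.45 percentage points over ages but 0.12 over title sets, where 4 sets were higher and 4 lower. At 10 TPM or more, the median was 2088 genes in Egfr cells and 1787 in the others. At that limit the age means were higher in Egfr cells at all 3 ages. They were 2068 against 1819 at 5 weeks, 1976.5 against 1839.5 at 7 weeks and 1835.5 against 1765.5 at 7 months. The part of the number of genes and of Malat1 in the differences given next was not tested.

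**Figure D1:**
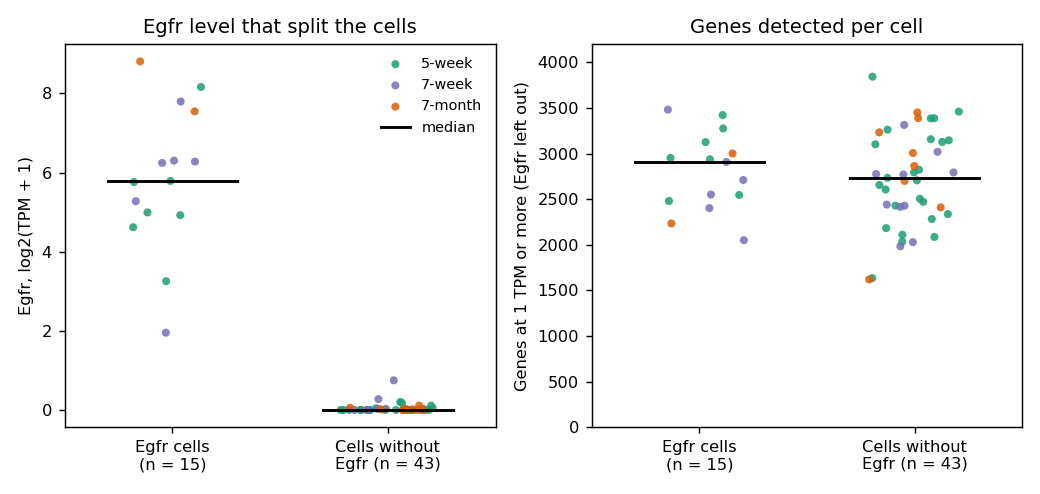
Left, log2(TPM + 1) of Egfr, which split the cells; right, the number of other genes at 1 TPM or more. Each point is 1 cell, coloured by age, and each bar is the median: 2908 genes in the 15 Egfr cells and 2734 in the 43 cells without Egfr, with ranges that overlap almost wholly.

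Each other gene was compared with the age as the unit: log2(TPM + 1) was averaged over the cells of each side within an age, which gave 3 pairs. No gene passed limma's test at an adjusted p under 0.05 among the 4596 tested, so 0% were called higher and 0% lower with Egfr, and the smallest adjusted p was 0.458. At an unadjusted p under 0.05 there were 222 genes higher (4.83%) and 204 lower (4.44%), 426 in all. All 3 ages and no fewer than 6 of the 8 title sets shared a sign for 246 genes on the higher side (5.35%) and for 409 on the lower side (8.9%). It was above 0 for 2395 genes (52.1%), with a median over all genes of 0.05 on the log2 scale. The named differences below are therefore values of these cells, none of which passed the correction. Of each kind, the 12 genes with the largest mean difference among those with the same sign were named, so their shared sign across ages and sets comes from that choice. A difference of means of log2(TPM + 1) mixes how many cells hold a transcript with how much they hold, and understates change in low genes.

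**Figure D2:**
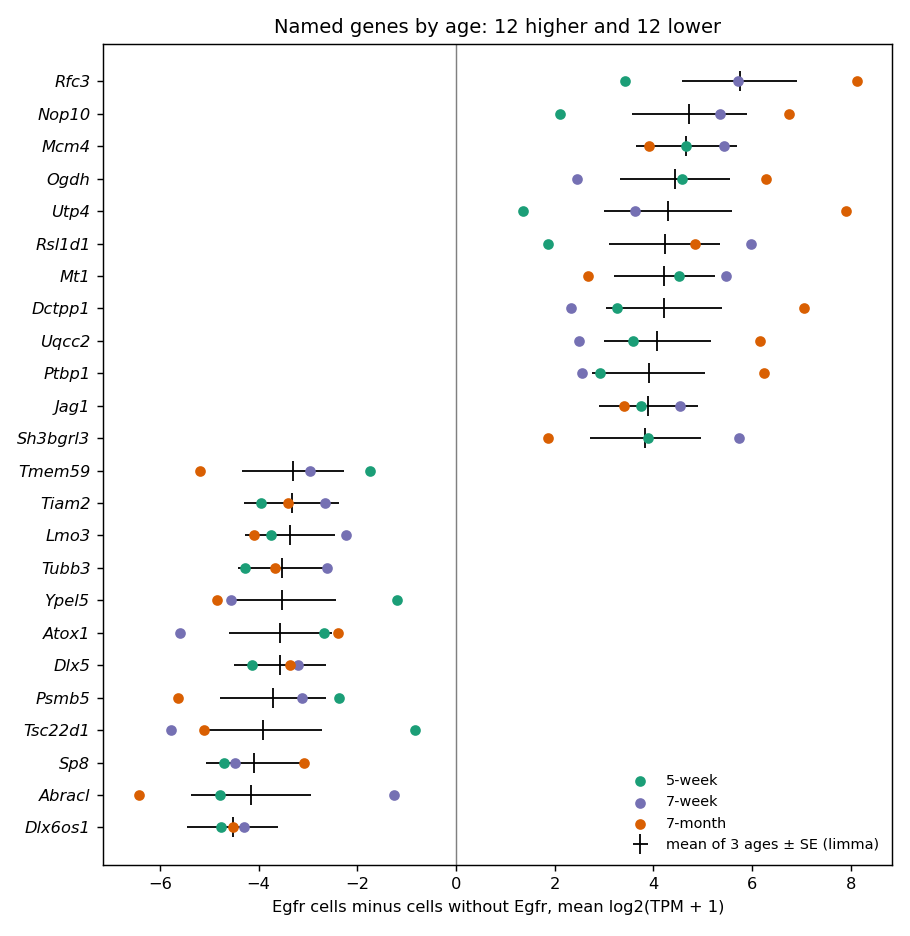
Difference in mean log2(TPM + 1) between Egfr cells and cells without Egfr for the 12 named genes on each side. Points are the 3 ages and the bar is their mean with its standard error from limma: Rfc3 is at the top with 5.75 and Dlx6os1 at the bottom with -4.53, and the 7-month points, which rest on 2 Egfr cells, often lie farthest from the mean.

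Genes of neuronal fate had lower means in Egfr cells. Dlx6os1 (ENSMUSG00000090063), a long non-coding RNA transcribed across the Dlx5 and Dlx6 locus in GABAergic precursors, reached 1 TPM in 1 of 15 Egfr cells (6.67%, 0.169 to 31.9%) and 26 of 43 cells without Egfr (60.5%, 44.4 to 75%). Its lowest, median and highest levels were 0, 0 and 1.54 TPM in Egfr cells, against 0, 124 and 1008 TPM in the others. Every Egfr cell thus stood at or near 0, while the other cells were spread over the whole range. Its mean log2(TPM + 1) was 0.15 ± 0.19 (SD over 3 ages) against 4.67 ± 0.42, a difference of -4.53 (SE 0.93, limma adjusted p = 0.458), lower in 8 of 8 title sets. The strand of the counting is not stated, so reads of Dlx6os1 and of the genes it overlaps cannot be told apart.

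Sp8 (ENSMUSG00000048562), a zinc finger factor of olfactory bulb interneuron precursors, was seen in 1 Egfr cell, at 127 TPM, and in 24 of 43 cells without Egfr, where the median was 77.2 and the highest 5028 TPM. Its mean difference was -4.09 (SE 0.97). Dlx5, a homeobox factor of the same lineage, was seen in 2 of 15 and 29 of 43 cells, with a highest level of 73.6 TPM against 892 TPM and a difference of -3.57 (SE 0.93). Its relatives Dlx1 (5 of 15 and 30 of 43 cells, -2.21) and Dlx2 (2 of 15 and 14 of 43 cells, -1.34) had smaller differences of the same sign.

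Dcx encodes doublecortin, the microtubule protein of migrating neuroblasts. It was seen in 2 of 15 Egfr cells (13.3%, 1.66 to 40.5%) and 24 of 43 cells without Egfr (55.8%, 39.9 to 70.9%). Its median was 0 TPM in Egfr cells and 7.95 TPM in the others, with highest values of 178 and 1022 TPM, and the difference was -2.70 (SE 0.92, limma adjusted p = 0.459). Tubb3, the neuronal beta tubulin, was less of an on or off gene. It reached 1 TPM in 9 of 15 Egfr cells and 37 of 43 others, with medians of 9.26 and 1423 TPM, and its difference was -3.52 (SE 0.90). Stmn1, a tubulin-binding protein of dividing and young neuronal cells, was present in all 58 cells, with medians of 4744 and 9457 TPM and a difference of -0.66 (SE 0.32). Neuronal transcripts therefore ranged from nearly absent in Egfr cells, as for Dlx6os1, to abundant in both kinds of cell, as for Stmn1.

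As a whole, all 18 tested genes of the 22 on the neuroblast list had a lower mean in Egfr cells, with a median difference of -1.72 against 0.05 over all tested genes. None passed the adjusted threshold. Of the 18, 8 had an unadjusted p under 0.05, beside 4.44% of all tested genes that were lower at that limit. A shared lower sign over all ages and 6 or more sets was found for 9, beside 8.9% of all tested genes. The median of the list was -2.38 at 5 weeks, -2.28 at 7 weeks and -1.11 at 7 months. It was -2.10 when 2 cells without Egfr and with high oligodendrocyte genes, described below, were left out. A cell's mean over the list was 0.99 at the lowest, 2.35 at the median and 5.78 at the highest among Egfr cells, and 0.89, 4.71 and 7.48 among the others. The ranges overlapped at both ends. Of the 15 Egfr cells, 2 lay above the median of all active cells, and of the 43 others 27 did.

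**Figure D3:**
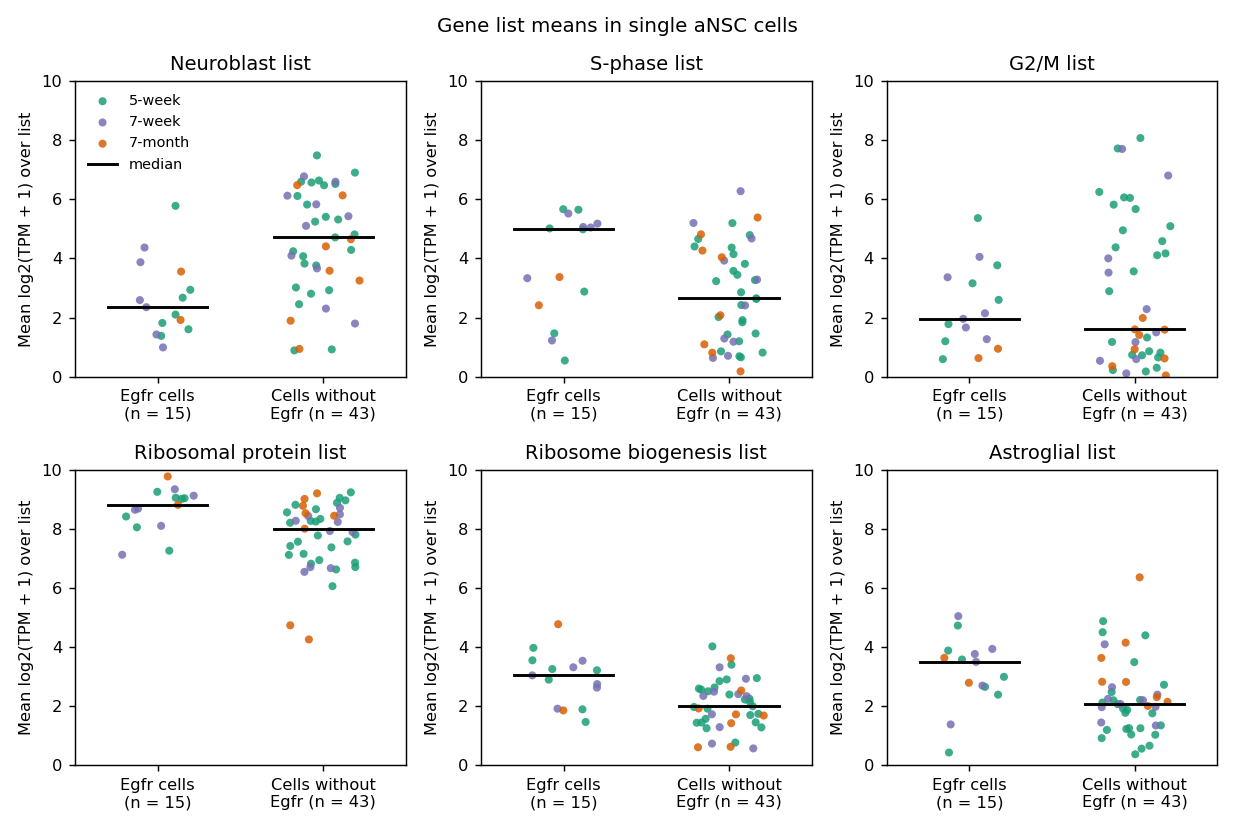
Mean log2(TPM + 1) over 6 gene lists in each of the 58 cells, coloured by age, with the median of each side as a bar. The neuroblast medians are 2.35 in Egfr cells and 4.71 without Egfr, the S-phase medians 4.99 and 2.65, and the cells of the 2 sides overlap in every panel.

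Other named genes on the lower side were of mixed roles. Lmo3, a LIM-only cofactor of transcription, was seen in 1 of 15 Egfr cells and 19 of 43 others, with a difference of -3.36 (SE 0.91). Tiam2, an exchange factor for the GTPase Rac, was seen in 3 and 25 cells and differed by -3.33 (SE 0.96). Tsc22d1, a leucine zipper factor of the TSC22 family, was at 1 TPM or more in 8 of 15 Egfr cells and in 42 of 43 others, with medians of 56.8 and 401 TPM. The remaining 5 were Abracl (-4.16), the proteasome subunit Psmb5 (-3.71), the copper chaperone Atox1 (-3.56), Ypel5 (-3.54) and Tmem59 (-3.30). Atox1 was lower in 8 of 8 title sets, as was Dlx6os1, and the other 10 of these 12 genes in 6 or 7.

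Several genes of DNA replication were among those with higher means in Egfr cells. Rfc3 (ENSMUSG00000033970), a subunit of the clamp loader that puts PCNA on DNA, was seen in 12 of 15 Egfr cells (80.0%, 51.9 to 95.7%) and 13 of 43 cells without Egfr (30.2%, 17.2 to 46.1%). Its lowest, median and highest levels were 0, 501 and 3046 TPM in Egfr cells and 0, 0.08 and 1335 TPM in the others. Egfr cells were thus mostly high with 3 at or near 0, and the others mostly near 0 with a minority as high. The mean log2(TPM + 1) was 8.09 ± 2.21 (SD, 3 ages) against 2.34 ± 1.15, a difference of 5.75 (SE 1.16, limma adjusted p = 0.458), higher in 7 of 8 title sets.

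Mcm4 (ENSMUSG00000022673), a subunit of the replicative helicase, was seen in 14 of 15 Egfr cells (93.3%, 68.1 to 99.8%) and 14 of 43 others (32.6%, 19.1 to 48.5%). Its median was 283 TPM in Egfr cells and 0.08 TPM in cells without Egfr, while the highest cells of each side were alike, at 548 and 592 TPM. The difference was 4.67 (SE 1.02). Pcna, the sliding clamp of the DNA polymerases, was common on both sides, in 14 of 15 and 31 of 43 cells, with medians of 1412 and 598 TPM and a difference of 3.39 (SE 0.79). Rrm1, the large subunit of ribonucleotide reductase, differed by 3.26 (SE 1.2), and Dctpp1, which cleans the nucleotide pool, by 4.22 (SE 1.17). Mcm2, another helicase subunit, did not keep its sign: its difference was 3.35 at 5 weeks, 4.62 at 7 weeks and -3.12 at 7 months.

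On the S-phase list, 27 of 36 tested genes had a higher mean in Egfr cells, with a median difference of 0.89, and none passed the adjusted threshold. At an unadjusted p under 0.05, 6 of the 36 were higher and 2 lower, beside 4.83% and 4.44% of all tested genes. The median was 1.10 at 5 weeks and 1.25 at 7 weeks, and -0.43 at 7 months, where the Egfr side is 2 cells, and the median over a title set was above 0 in 4 of 8 sets. The value depended on single groups: it was 0.10 without title set A1_3, which held no Egfr cell, 0.49 without the 7-week cells and 1.66 without the 7-month cells. On the log2 of the mean TPM, which weights the cells with most transcript, the list's median was -0.23, with the median of all genes at -0.53 on that scale. A cell's mean over the list ran through 0.55, 4.99 and 5.66 (lowest, median, highest) in Egfr cells and through 0.18, 2.65 and 6.27 in the others. Most Egfr cells were therefore in the upper part of a range that both sides shared, and 10 of 15 lay above the median of all active cells, against 19 of 43.

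On the G2/M list, which holds genes of the later cell cycle phases, 12 of 51 tested genes had a higher mean in Egfr cells and 39 a lower one, with a median difference of -0.72. None passed the adjusted threshold. At an unadjusted p under 0.05, 3 of the 51 were lower and 0 higher, a share near the 4.44% of all tested genes. The median was -1.01 at 5 weeks, -0.36 at 7 weeks and -0.02 at 7 months. It was -0.46 without the 5-week cells, and -0.44 without any of title sets A2_1, A2_2 and A3_2. Cks2, a small partner of the cyclin-dependent kinases, was seen in 4 of 15 Egfr cells and 24 of 43 others, with a difference of -2.88 (SE 1.06). G2e3, a ubiquitin ligase named for its peak in late cycle, was seen in 1 and 16 cells and differed by -1.55 (SE 0.55). Mki67, the proliferation antigen Ki-67, was found in 5 of 15 Egfr cells (33.3%, 11.8 to 61.6%) and 16 of 43 others (37.2%, 23 to 53.3%), with intervals that overlapped widely and a difference of -0.50 (SE 0.65). Top2a, the topoisomerase that untangles replicated DNA, was in 11 and 24 cells, and its difference of -0.04 (SE 1.23) was far inside its error. That mean averaged opposite signs, with 0.79 at 5 weeks, 2.13 at 7 weeks and -3.06 at 7 months. The highest G2/M means, up to 8.07, belonged to cells without Egfr, and the highest Egfr cell stood at 5.36. Among regulators of G1, Cdk4 had medians of 2283 and 1452 TPM and a difference of 1.69 (SE 0.65), and Ccnd2 was in all 15 Egfr cells and 41 of 43 others with a difference of 0.37 (SE 0.64).

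**Figure D4:**
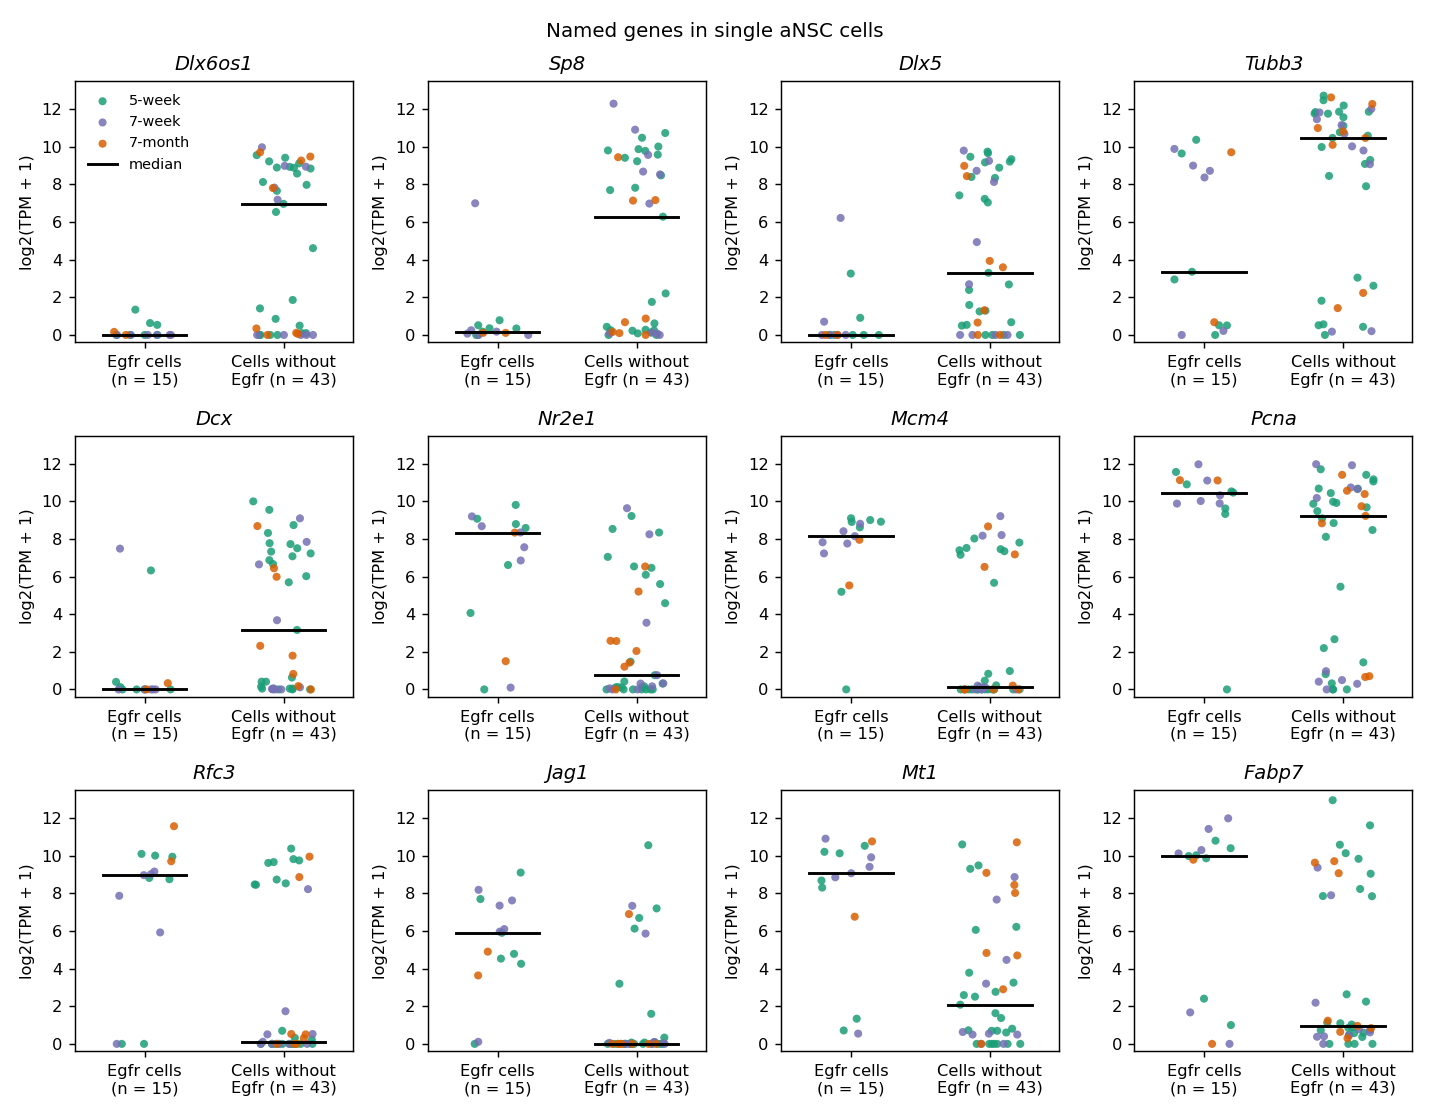
log2(TPM + 1) of 12 named genes in each of the 15 Egfr cells and 43 cells without Egfr, coloured by age, with the median as a bar. Most genes are either near 0 or high in a cell: Mcm4 is high in 14 of 15 Egfr cells and 14 of 43 others, and Dlx6os1 reaches 1 TPM in 1 Egfr cell and 26 others.

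Crossing both programmes over single cells, 9 of 15 Egfr cells (60.0%, 32.3 to 83.7%) had an S-phase mean above and a neuroblast mean not above the median active cell, against 7 of 43 cells without Egfr (16.3%, 6.81 to 30.7%). The reverse, a neuroblast mean above and an S-phase mean not above the median, was found in 1 of 15 (6.67%, 0.169 to 31.9%) and 15 of 43 (34.9%, 21 to 50.9%). At least 1 of Dcx, Sp8 and Dlx6os1 was present in 3 of 15 Egfr cells and 35 of 43 others, a combination put together after the values of these genes were seen. These shares are counts of cells, with no test over animals.

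Genes of ribosome production had higher means in Egfr cells. Of 77 tested ribosomal protein genes, 68 were higher, with a median difference of 1.12, and 18 of them had an unadjusted p under 0.05, as did 0 of the lower ones. Of 21 tested ribosome biogenesis genes, 18 were higher, with a median of 1.16 and 6 at an unadjusted p under 0.05. None of either list passed the adjusted threshold. Over all tested genes, 52.1% had a higher mean, the median difference was 0.05, and 4.83% were higher at an unadjusted p under 0.05. Nop10, a protein of the box H/ACA particles that modify ribosomal RNA, was in 13 of 15 Egfr cells and 20 of 43 others, with medians of 257 and 0.28 TPM and a difference of 4.73 (SE 1.17). Dkc1, the pseudouridine synthase of the same particles, was in 12 and 11 cells, with medians of 132 and 0.12 TPM and a difference of 3.68 (SE 1.00). Rsl1d1 and Utp4, both nucleolar proteins of ribosome assembly, differed by 4.23 (SE 1.12) and 4.30 (SE 1.30). Utp4 was nonetheless found in only 7 of 15 Egfr cells, and its 7-month difference of 7.91 exceeded those of 5 weeks (1.36) and 7 weeks (3.63). Among ribosomal proteins, Rps20 differed by 3.20 (SE 1.00) and Rpl35a by 2.59 (SE 0.77), the latter in 8 of 8 sets. These genes share reads with near-identical copies in the genome, so single members are uncertain.

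The mean over the ribosomal protein list was 7.13, 8.81 and 9.77 in Egfr cells (lowest, median, highest) and 4.26, 8.0 and 9.24 in the others. The 2 lowest of the cells without Egfr were 7-month cells with high oligodendrocyte genes. Without them the list's median difference was 0.70, and with title sets in place of ages as units it was 0.57, so this difference shrank by over 1.5 times in each case. It was also 0.70 without the 7-month cells and 0.69 without title set A1_3. The ribosome biogenesis median was 0.73 without the 7-month cells, 2.22 without set A1_1 and 0.49 without set A1_2. Over title sets the S-phase and astroglial medians also shrank, to 0.43 and 0.47, and the neuroblast median was -1.25.

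Markers of stem cell identity gave a mixed picture. Nr2e1 (ENSMUSG00000019803), the gene used to sort the cells, was seen in 13 of 15 Egfr cells (86.7%, 59.5 to 98.3%) and 20 of 43 others (46.5%, 31.2 to 62.3%). Its lowest, median and highest levels were 0, 322 and 896 TPM against 0, 0.69 and 794 TPM, so the highest cells of both sides were alike. The difference was 3.59 (SE 1.06, limma adjusted p = 0.458), higher in 5 of 8 title sets. The row named gfp was at 1 TPM or more in 9 of 15 and 21 of 43 cells, with a difference of 1.41 (SE 1.13). Sox2, a core factor of neural stem cells, was seen in 3 of 15 and 11 of 43 cells. Nes, which encodes the stem cell filament nestin, was seen in none of the Egfr cells, which allows a share of up to 20%, and in 4 of 43 others. Hes5, a target of Notch signalling, was seen in 1 and 6 cells. Vim, another filament gene, was in 4 and 18 cells. Of the markers that define neural stem cells, Sox2, Nes and Hes5 were thus under 1 TPM in most cells of both kinds. Over the identity list, 8 of 14 tested genes had a higher mean, with a median of 0.26 that turned to -0.10 without the 5-week cells, -0.37 without the 7-month cells and -0.40 over title sets.

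Jag1 (ENSMUSG00000027276), a ligand of the Notch receptors, was seen in 13 of 15 Egfr cells (86.7%, 59.5 to 98.3%) and 9 of 43 others (20.9%, 10.0 to 36.0%). Its median was 59.0 TPM in Egfr cells and 0 in the others, although the highest cell, at 1511 TPM, lacked Egfr. The 3 ages gave 3.75, 4.55 and 3.41, with a mean of 3.90 (SE 1.00), higher in 7 of 8 sets. Hes6, an inhibitor of Hes1, was in 6 and 6 cells, and its mean of 3.52 (SE 1.46) came mostly from 8.40 at 7 months. The activation and progenitor list as a whole had 8 of 14 tested genes higher and a median of 0.54, but no steady direction. Its median was -0.73 at 5 weeks, -0.55 at 7 weeks and 0.15 at 7 months, above 0 in 2 of 8 title sets, 0.015 with title sets as units and -0.47 without title set A1_3. Its members were split, with Hes6 and Cdk4 on one side and Sp8 and Dlx5 on the other.

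**Figure D5:**
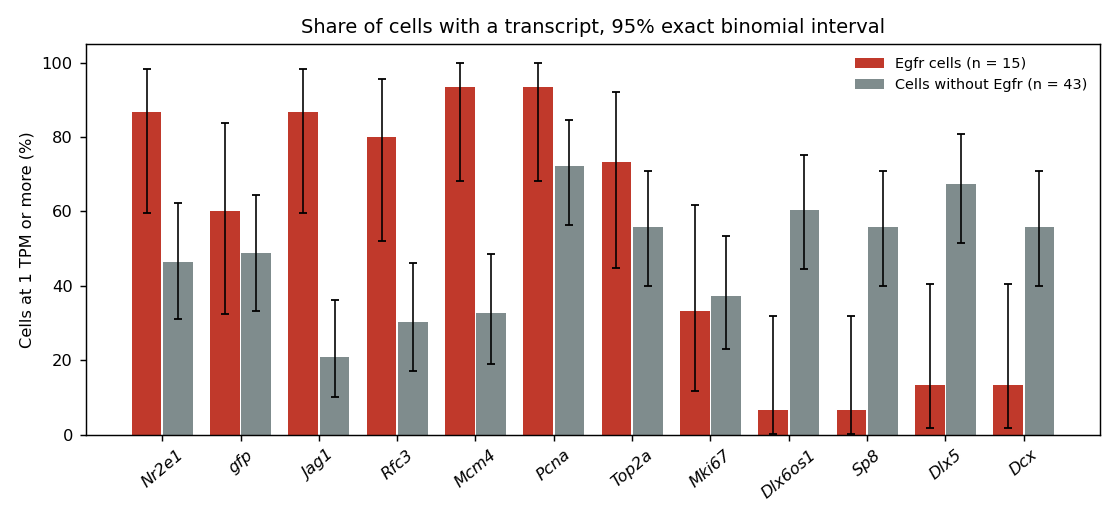
Share of the 15 Egfr cells and of the 43 cells without Egfr with 12 transcripts at 1 TPM or more, in percent, with exact binomial 95% intervals over cells. Jag1 stands at 86.7% against 20.9% and Mcm4 at 93.3% against 32.6%, while Mki67 is at 33.3% against 37.2% and Dlx6os1 at 6.67% against 60.5%.

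Some astroglial genes were more frequent in Egfr cells, and others were not. Mt1, a metal-binding metallothionein, was in 13 of 15 Egfr cells and 24 of 43 others, with medians of 538 and 3.24 TPM and a difference of 4.23 (SE 1.02). Fabp7, the fatty acid binding protein of radial glia, was in 13 and 21 cells, with medians of 1014 and 0.94 TPM and a difference of 3.30 (SE 1.16). Sdc4, a cell surface proteoglycan, differed by 2.78 (SE 0.99). Several classical astrocyte genes had smaller differences, each below its standard error. The aldolase Aldoc differed by -0.04 (SE 0.99) and Clu by -0.45 (SE 0.94). The connexin gene Gja1 differed by 0.68 (SE 0.99) and the glutamate transporter Slc1a3 by 1.10 (SE 1.16). Slc1a3 had medians of 174 TPM in Egfr cells and 7.75 TPM in the others. Its difference was 2.28 at 5 weeks, 2.59 at 7 weeks and -1.56 at 7 months. Of 27 tested astroglial genes, 19 had a higher mean, with a median of 0.76 and none past the adjusted threshold. The median was 1.03 at 5 weeks, 1.36 at 7 weeks and -0.98 at 7 months, and -0.20 on the log2 of the mean TPM. Leaving out an age gave 0.43 (5 weeks), 0.44 (7 weeks) and 1.33 (7 months), and it was 0.23 without set A1_1 and 1.27 without set A1_2. Of the Egfr cells, 13 of 15 had an astroglial mean above the median active cell, against 16 of 43 others. Within title sets this was not steady: the astroglial mean was higher in Egfr cells in 4 sets and lower in 4.

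The remaining genes named on the higher side had roles in metabolism and splicing, apart from Sh3bgrl3. Ogdh, a subunit of the 2-oxoglutarate dehydrogenase of the citric acid cycle, was in 11 of 15 Egfr cells and 11 of 43 others and differed by 4.44 (SE 1.12). Uqcc2, an assembly factor of respiratory complex III, differed by 4.08 (SE 1.09). Ptbp1, the splicing repressor of non-neuronal cells, was in 11 and 16 cells, with medians of 217 and 0.37 TPM and a difference of 3.90 (SE 1.14). Sh3bgrl3, a small thioredoxin-like protein, differed by 3.83 (SE 1.13). On the glycolysis list, 9 of 10 tested genes had a higher mean, with a median of 1.22, and none had an unadjusted p under 0.05. Ldha, lactate dehydrogenase, differed by 2.06 (SE 1.03) and Tpi1, triose phosphate isomerase, by -1.71 (SE 0.89).

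The other genes of the Egfr pathway were mostly too low to compare. Of the 11 ligands of the family, none passed the filter of a mean log2(TPM + 1) of 1. Egf, Areg, Ereg, Btc, Epgn, Nrg2, Nrg3 and Nrg4 were under 1 TPM in all 58 cells. Tgfa was seen in 1 Egfr cell at 68.6 TPM, and Hbegf in 1 cell without Egfr at 38.2 TPM. Nrg1, a ligand of the related receptors Erbb3 and Erbb4, was the most frequent, in 0 of 15 Egfr cells, which allows a share of up to 20%, and in 8 of 43 others, at up to 515 TPM. Of the partner receptors, Erbb2 was under 1 TPM in all cells, and Erbb3 and Erbb4 were each seen in 1 cell without Egfr, at 22.8 and 2.04 TPM. All 3 partner receptors were thus under 1 TPM in every Egfr cell.

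Downstream, 7 of the 29 adaptor and MAP kinase genes passed the filter, with a median difference of -0.05. The median over these 7 genes was 0.51 at 5 weeks, 1.65 at 7 weeks and 0.85 at 7 months, each above 0, and 0.49 with title sets as units, so its sign depends on how genes and ages are combined. None passed the adjusted threshold, and 1 had an unadjusted p under 0.05. That gene was Akt2, a kinase of the phosphoinositide branch, seen in 9 of 15 Egfr cells and 6 of 43 others, with medians of 63.0 and 0 TPM and a difference of 3.00 (SE 1.02). The Ras gene Nras was in 14 and 38 cells, with medians of 392.2 and 292 TPM and a difference of 1.11 (SE 0.79). The Raf family kinase gene Araf differed by 2.03 (SE 1.23).

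Of the 21 genes that restrain the receptor or move it through the cell, 7 passed the filter, with a median of -0.25 that turned to 0.50 without the 7-month cells, 0.10 without title set A2_3 and 0.11 without A3_2. Usp8, the deubiquitinase that acts on the internalised receptor, was in 2 of 15 Egfr cells and 12 of 43 others and differed by -1.38 (SE 0.59). Hgs, which sorts ubiquitinated receptors at the endosome, differed by -0.73 (SE 0.47). Lrig1, an inhibitor of the receptor, was seen in 1 Egfr cell at 12.1 TPM and in no other active cell. Of 18 target genes of the pathway 4 passed the filter, and all 4 had a lower mean in Egfr cells, with a median of -0.71 (-0.43 without the 7-month cells and -0.30 without set A2_1) and none at an unadjusted p under 0.05. Etv1, an ETS factor, was in 1 of 15 Egfr cells and 11 of 43 others (-1.23, SE 0.60), and the immediate early genes Jun (2 and 10 cells, -0.89) and Egr1 (3 and 12 cells, -0.52) were also seen in a minority on both sides.

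Markers of other cells were low in the Egfr cells. All 3 defining markers of endothelial and mural cells (Cldn5, Pecam1, Rgs5), of ependymal cells (Foxj1, Tmem212, Ccdc153), of oligodendrocyte precursors (Pdgfra, Cspg4, Sox10) and of microglia (Cx3cr1, Csf1r, C1qa) were under 1 TPM in every Egfr cell. The synaptic gene Snap25 was in 2 of 15 Egfr cells and 15 of 43 others. In the cells without Egfr, 2 cells of 7 months from title set A1_3 had an oligodendrocyte list mean of 10.5 and 10.6. That set held no Egfr cell. The summed TPM of the oligodendrocyte list was 0 at the lowest, 0.26 at the median and 442 at the highest in Egfr cells, and 0, 0.42 and 68418 in the others. Without these 2 cells the list medians were 0.57 for S-phase, 0.67 for the astroglial list and -0.73 for G2/M.

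The 15 Egfr cells also differed among themselves. Their S-phase means formed a high and a low part, with 8 cells between 4.99 and 5.66 and 7 between 0.55 and 3.37. The lowest of them, a 5-week cell at 54.3 TPM of Egfr, had the highest neuroblast mean (5.78) and the lowest astroglial mean (0.44) of the Egfr cells. A 7-week cell at 76.5 TPM had a neuroblast mean of 4.37 together with an S-phase mean of 5.06. The 4 cells with Egfr at 100 TPM or more had S-phase means of 1.23 to 3.37, with a median of 1.94, and G2/M means of 0.63 to 1.67, against medians of 5.05 and 2.60 in the other 11, a limit set after the levels were seen. These 4 include the only 2 Egfr cells of 7 months. In cells without Egfr, the G2/M mean averaged 3.46 at 5 weeks, 2.82 at 7 weeks and 1.07 at 7 months. Their S-phase mean averaged 2.73, 2.96 and 2.83. Egfr level and age can thus not be fully told apart here. Across the 15 cells the rank correlation of Egfr with the number of genes was -0.50, with the G2/M mean -0.47 and with the S-phase mean -0.29. These correlations are descriptions over cells of 3 ages that share title sets, and the number of genes moves with them.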

How the data were processed

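Single cells were lysed and their cDNA amplified with SMARTer chemistry, per the labels' protocols. The authors deposited TPM values for 37621 rows, for which the submitters' processing notes name RSEM 1.2.15 and the mm9 build. Annotation, aligner, strand, filters and read depth are not given in the sources used here. The columns used summed to between 876477 and 999999 TPM, and TPM keeps no counts, so precision is limited by the number of cells and ages. Symbols were matched for 32897 rows, and no coordinates are printed. No doublet caller was run. The highest correlation between 2 active cells was 0.575.

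The members, gene lists, tests and alternatives were chosen with earlier results of these data known. The lists were taken over or extended from earlier work on the same data, and 4 of their members matched no row.

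The deposited TPM values were turned into log2(TPM + 1), and averaged per side and age. limma 3.58.1 (R 4.3.3, data.table, version 1.17.8) compared the sides with age as a replicate block and eBayes with a trend, two-sided, with Benjamini-Hochberg adjustment at 0.05, on genes with a mean of at least 1 over the 58 cells. The pairing comes from the labels, since both sides of a pair come from mice of 1 age label. The labels do not say which cells share an animal, so p-values measure the spread between these values. Genes detected were compared with an exact paired permutation test (numpy 2.4.6, pandas 2.3.3, scipy 1.17.1). Shares carry Clopper-Pearson 95% intervals, and a share of 0 was limited by 3 cells of the total. A mean over a list is that of all its matched members in a cell.

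Named genes were those past the threshold (none), the 12 largest differences per direction with a shared sign over 3 ages and 6 or more of 8 title sets (predicted models left out), a fixed panel, the 3 largest differences of each list, and all ligands and receptors of the family. Alternatives were a pseudocount of 0.1, no filter or one at 3, quantile normalization, logs taken after averaging TPM, rescaling without mitochondrial and ribosomal RNA rows, no block, title sets as units, Egfr limits of 10 TPM or of 0, leaving out cells with few genes or with high oligodendrocyte genes, detection at 10 TPM or above 0, and leaving out each age or title set. Some genes picked by the rule are not reported here. The limma step was tested on simulated data.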

Additional observations from a re-analysis of the deposited data

Results flagged for a closer look

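Of 26 groups of 4 to 10 cells checked for a cell far from the rest, 4 held one, and chance flags about 1 in 20 groups. At 5 weeks, the highest of the 7 Egfr cells had Egfr at 285.5 TPM, far above the other 6, and at 7 weeks the highest of the 6 had 220.7 TPM. A single 5-week Egfr cell stood alone with a neuroblast list mean of 5.78, the highest of 7. Among the 10 cells of 7 weeks without Egfr, 1 stood apart with an astroglial list mean of 4.10.

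For 2 named genes the difference between Egfr cells and cells without Egfr was above 0 in every title set of 1 age that held both kinds of cell and below 0 in every such set of another age. Other named genes differed in sign between age means without meeting that limit. Mcm2, a subunit of the replicative helicase, differed by 4.62 at 7 weeks and by -3.12 at 7 months. Nfix, a nuclear factor of stem cell quiescence and differentiation, differed by -6.77 at 7 weeks and by 0.94 at 7 months. The difference between ages was not tested, and the 7-month side with Egfr is 2 cells.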

How the results depend on the processing

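The fit without the replicate block for age called 0 genes in either direction, as did the blocked fit, and gave 408 genes at an unadjusted p under 0.05 against 426, so the pairing by age changed no call. With title sets as blocks the count was 0 again, with 311 at an unadjusted p under 0.05. Over the 25 alternatives the smallest adjusted p of limma lay between 0.0404 and 0.735. A single call was made, 1 gene lower when the 7-week pair was left out: Tuba1a, an alpha tubulin, at -3.47 (adjusted p = 0.0404), against -2.61 (adjusted p = 0.458) with all ages, and leaving out an age or a set gave 0 to 1 lower genes and 0 higher. Of 1763 recomputed differences of 72 named genes, 1726 kept their direction and 37 reversed, and 63 genes never reversed. These include Dlx6os1 (-7.83 to -3.69 over all settings), Sp8 (-6.80 to -3.57), Rfc3 (2.65 to 7.26), Mcm4 (1.58 to 6.48), Jag1 (1.24 to 6.16) and Nr2e1 (2.15 to 4.62). All of these examples but Nr2e1 were picked for a shared sign over 3 ages and 6 or more of 8 title sets. Nr2e1 also had the same sign at all 3 ages. Leaving out an age could therefore not reverse them, and their kept direction comes in part from that choice. The causes of the shifts were not tested.

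The difference in genes detected, 34.0, was -372.6 with detection above 0, -21.05 over title sets and -56.94 without the 2 cells high in oligodendrocyte genes, and leaving out each age gave -64.97 to 159.4. With detection at 10 TPM the age means averaged 1960 genes in Egfr cells and 1808 in the others. With logs taken after averaging TPM, the S-phase, activation, astroglial and identity medians were -0.23, -0.61, -0.20 and -0.24, with Ccnd2 at -0.63, Slc1a3 at -0.028, Gja1 at -0.20 and Rab7 at -0.31. Quantile normalization put the identity median at -0.11 and Gja1 at -0.13, with the median of all genes at -0.10. A pseudocount of 0.1 put Top2a at 0.29. The filter at a mean of 3 put the adaptor and MAP kinase median at 1.57, the inhibitor and turnover median at 0.14 and the activation median at -0.71. Title sets as units put Top2a at 0.52, Ccnd2 at -0.28, Rab7 at -0.61, Jun at 0.056, the adaptor median at 0.49 and the identity median at -0.40, and with genes detected as a covariate these were 0.67, -0.20, -0.54, 0.059, 0.45 and -0.42. An Egfr limit of 10 TPM put Top2a at 0.078, the adaptor median at 0.19 and the identity median at -0.061. Against cells listed at 0, Top2a was 1.44, Aldoc 0.44, the adaptor median 0.23 and the activation median -0.059. Without the cells with the fewest genes, Ccnd2 was -0.29, the adaptor median 0.20 and the activation median -0.079, and without the 2 oligodendrocyte-high cells Ccnd2 was -0.39.

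Leaving out each age or title set gave ranges that crossed 0 for Top2a (-1.13 to 1.46), Aldoc (-0.87 to 0.56), Ccnd2 (-0.48 to 0.69), Gja1 (-0.25 to 1.69), Rab7 (-0.28 to 1.53), Sox2 (-1.79 to 0.54) and Nfix (-3.15 to 0.71). The same held for the medians of the activation list (-0.47 to 0.64), the adaptor list (-0.26 to 0.60), the inhibitor list (-0.81 to 0.50) and the identity list (-0.37 to 0.48). Over all settings the neuroblast median was -2.64 to -1.25, the G2/M median -1.72 to -0.10, the ribosomal protein median 0.35 to 1.39 the ribosome biogenesis median 0.49 to 2.22, the S-phase median -0.23 to 1.66 and the astroglial median -0.20 to 1.33. Read depth is unknown, the 7-month pair rests on 2 Egfr cells, and 3 pairs limit what the fit can call.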

Other observations

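Egfr was also found outside the active cells. Of 58 cells labelled quiescent, with a near-identical pair counted as 1, 4 held it at 1 TPM or more. A 7-week cell at 1363 TPM, above every active cell, had an astroglial list mean of 7.85, an S-phase mean of 0.67 and a neuroblast mean of 1.32. A second 7-week cell, at 279 TPM, and a 5-week cell, at 230 TPM, had S-phase means of 3.88 and 4.23 and astroglial means of 3.27 and 4.48. The fourth, the 5-week pair at 18.8 TPM, had a neuroblast mean of 6.62, higher than any Egfr cell labelled active. Among the 14 single-cell libraries labelled as filtered out, 12 held Egfr at 1 TPM or more, and the 14 ranged from 0.38 to 92.1 TPM with a median of 9.73 TPM. All 13 bulk pools held it, at 23.3 to 78.0 TPM with a median of 46.0 TPM. These libraries entered no comparison.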
